A study of Mus musculus with 39 samples.

Results

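Serine hydrolases of the brain other than the cholinesterases were followed here after exposure of mice to soman: Dagla, Mgll, Abhd6, Abhd12, Faah, Pnpla6, Lypla1, Lypla2 and Apeh. They were taken by gene symbol from the deposited expression table, in which 9 of 47561 genes carry these symbols, each once. All 9 passed the filter on low values, with a lowest value of 6.24 FPKM in any library, so that none was left out. The rule uses gene names alone, but the genes were proposed with earlier results of these libraries known.

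Serine hydrolases cut ester, amide or thioester bonds with an active-site serine, and organophosphates such as soman react with that serine. Acetylcholinesterase is the enzyme through which nerve agents act acutely, but the brain holds many other enzymes of the class. Dagla makes 2-arachidonoylglycerol, an endocannabinoid that neurons release to damp transmitter release. Mgll, Abhd6 and Abhd12 break that lipid down, and Faah breaks down anandamide, the other main endocannabinoid. Pnpla6, or neuropathy target esterase, hydrolyses choline phospholipids and is the target tied to delayed neuropathy caused by some organophosphates. Lypla1 and Lypla2 remove palmitate from proteins, and Apeh takes acetylated amino acids off the ends of peptides. The measurements are of messenger RNA, and enzyme protein or activity was not measured.

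The tissue was labelled as brain in all libraries, with no region named, and poly(dT)-selected RNA was sequenced. Soman, an organophosphate nerve agent, was given under the skin at doses of 1/10, of 1/5 and of 1/2 LD50, where the LD50 is the dose that is lethal to 50% of animals. Collection followed at day 1, 3, 7 or 14. A saline group, for which no day is stated, completed 13 groups of 3 libraries and 39 libraries in all. Strain, sex and age are not given in the sources used here, nor is it stated whether soman was given once or repeatedly, or how many animals each library holds. Time of collection and treatment cannot be told apart in a comparison with saline. Nor can they be told apart between soman groups of different days, because no saline group of each day stands beside them. Where animals were pooled or tissue was shared between libraries, the p-values measure only the spread between these libraries.

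Values are FPKM, by definition fragments scaled to transcript length and to the mapped fragments of each library. How these were computed is not given, so comparisons of level between genes rest on that scaling. The depth of the libraries is unknown, because read counts are not used here.

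Several libraries stood apart. In the 1/10 LD50 group of day 7, replicates 2 and 3 gave 20.8% and 24.7% of their summed FPKM to the 13 mitochondrial messengers, against 6.12% to 13.4% in the other 37 libraries. In 7 libraries, 47.6% to 77.3% of the genes that differed over 2-fold between the other 2 libraries of the group lay near the middle between them, a larger share than any library of another group gave for the same genes. Replicate 3 of 1/10 LD50 at day 3 had 61.9% but was not counted, because a library of another group gave 64.4%. Markers of cerebellar granule cells (Gabra6, Cbln3, Neurod1 and Barhl1) summed to 3.59 to 4.47 FPKM in 3 libraries, namely replicate 2 at day 3 of both the 1/10 and the 1/5 LD50 group, and replicate 1 at day 7 of the 1/2 LD50 group. The other 36 libraries held 41.1 to 183.8 FPKM of these markers, and saline 116.2 to 147.7. Neuron markers were high in every library (summed FPKM of 7 genes in saline, 1437 to 1546), and liver markers summed to 0 to 0.31 FPKM. For some of the results below, the value without these libraries is given. Further calls that changed without them are only counted, at the end. Bulk tissue was measured, so fewer cells of a type and less RNA per cell cannot be told apart.

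Abhd12 was the most abundant of the 9 messengers by far. In the 3 saline libraries it stood at 105.8, 103.5 and 97.2 FPKM, and it ranked first of the 9 in all 39 libraries. Lypla2 (34.2 ± 0.936 FPKM, SD, n = 3) and Mgll (30.0 ± 1.12) followed, and their saline values did not overlap each other. Dagla (19.9 ± 1.97), Pnpla6 (19.7 ± 0.667), Abhd6 (18.6 ± 0.516) and Faah (17.3 ± 1.42) came next, and each overlapped its neighbour in this order. The lowest were Apeh (12.1 ± 0.805) and Lypla1 (11.6 ± 1.08), which overlapped each other and lay below every saline value of the other members. Among the enzymes of 2-arachidonoylglycerol breakdown, the order in saline was thus Abhd12, Mgll and Abhd6. The 2 highest of the 9, Abhd12 and Lypla2, also have the shortest transcripts (longest annotated, 1999 and 1626 bases). The part of length in the order of levels was not tested. For reference, Ache stood at 32.2 ± 2.41 FPKM in saline and Bche, the other cholinesterase, at 0.925 ± 0.118.

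**Figure D1:**
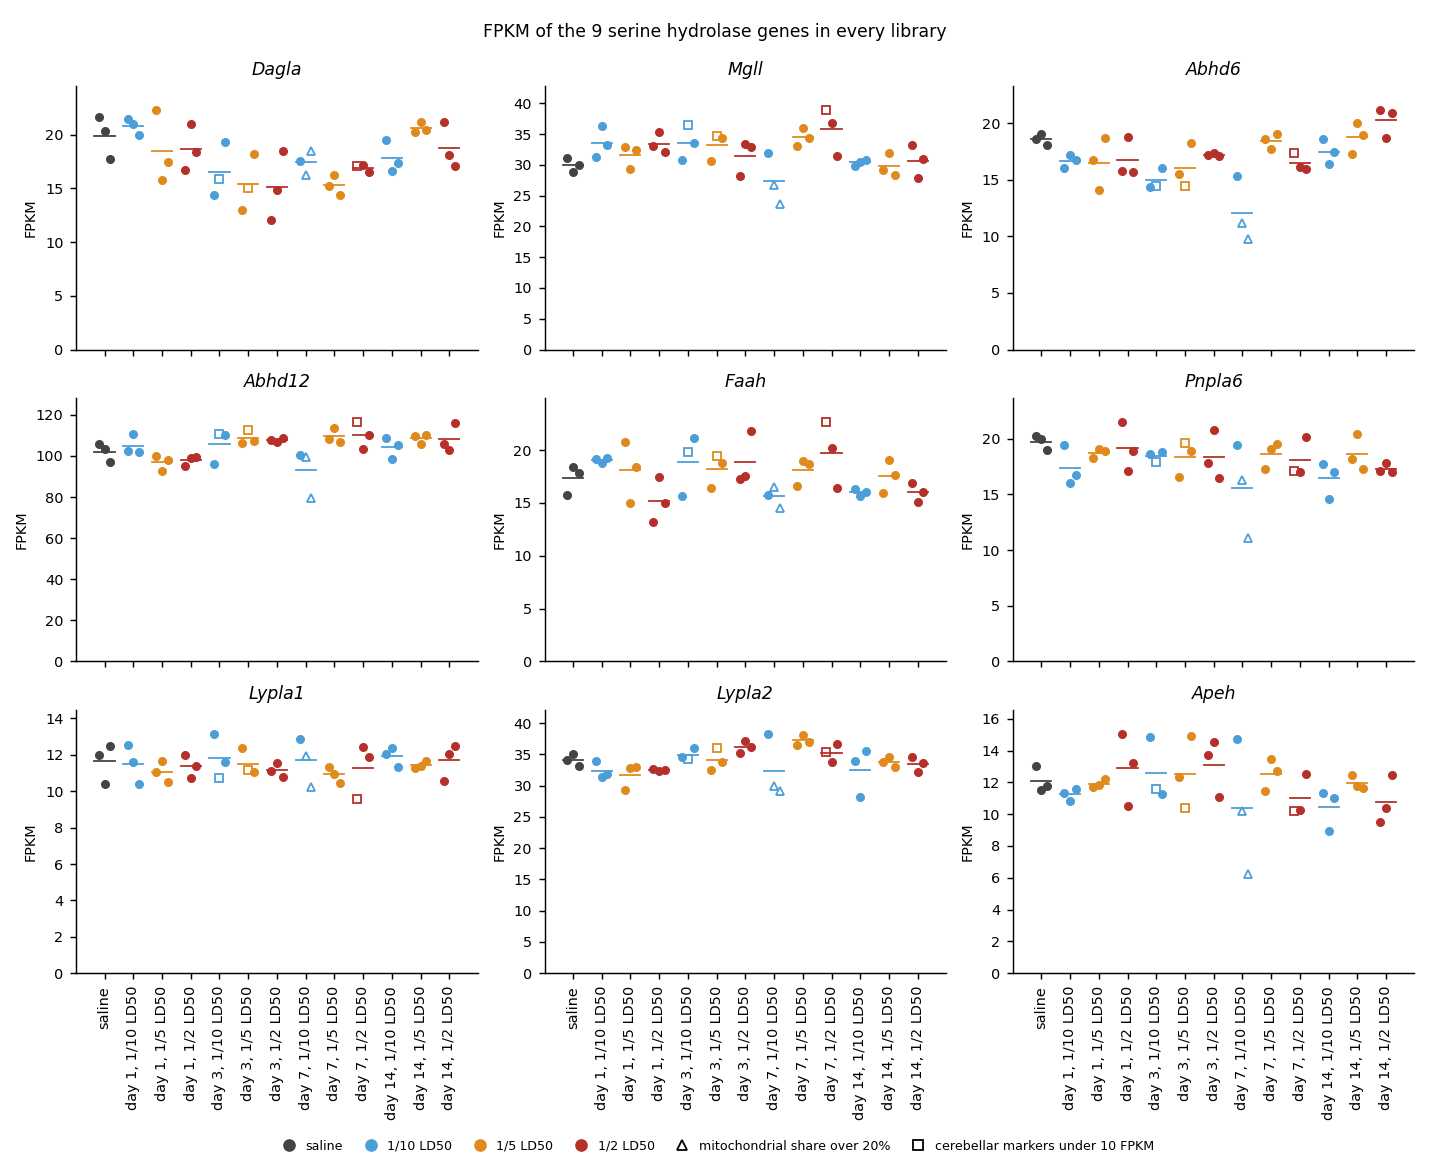
FPKM of the 9 genes (y axes, from 0) in each of the 39 libraries, grouped on the x axis by saline, day and dose. Points are libraries and short lines are group means (n = 3). Triangles mark the 2 libraries with over 20% mitochondrial messengers and squares the 3 libraries with under 10 FPKM of cerebellar markers. Abhd12 lies between 79.5 and 116.5 FPKM, above all other members.

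Changes against saline were small, and all 12 comparisons share the same 3 saline libraries. Of 108 tests (9 genes in 12 soman groups), 2 passed an adjusted p of 0.05, or 1.85%, against 5.73% of all gene-by-group tests (limma on log2(FPKM + 1) with Benjamini-Hochberg adjustment over 14701 genes). Both fell in a single group, 1/10 LD50 at day 7, and were Abhd6 and Pnpla6. In 99 of the 108 tests the log2 change was under 0.25 in size, and the largest was 0.60. By group, the share of all tested genes called was 0.347%, 0.0136% and 0.116% at day 1 (1/10, 1/5 and 1/2 LD50), 6.97%, 8.6% and 8.44% at day 3, 19.5%, 15.4% and 8.39% at day 7, and 0.435%, 0.163% and 0.415% at day 14. Another 8 tests had an unadjusted p under 0.05 without passing the adjusted one, 4 of them for Dagla. With all 36 soman libraries set against saline, 0 of 9 members passed (limma, adjusted p from 0.330 to 0.952, 0 at an unadjusted p under 0.05), where 2.57% of all tested genes did. Log2 changes in that comparison ran from -0.17 for Dagla to 0.09 for Mgll.

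**Figure D2:**
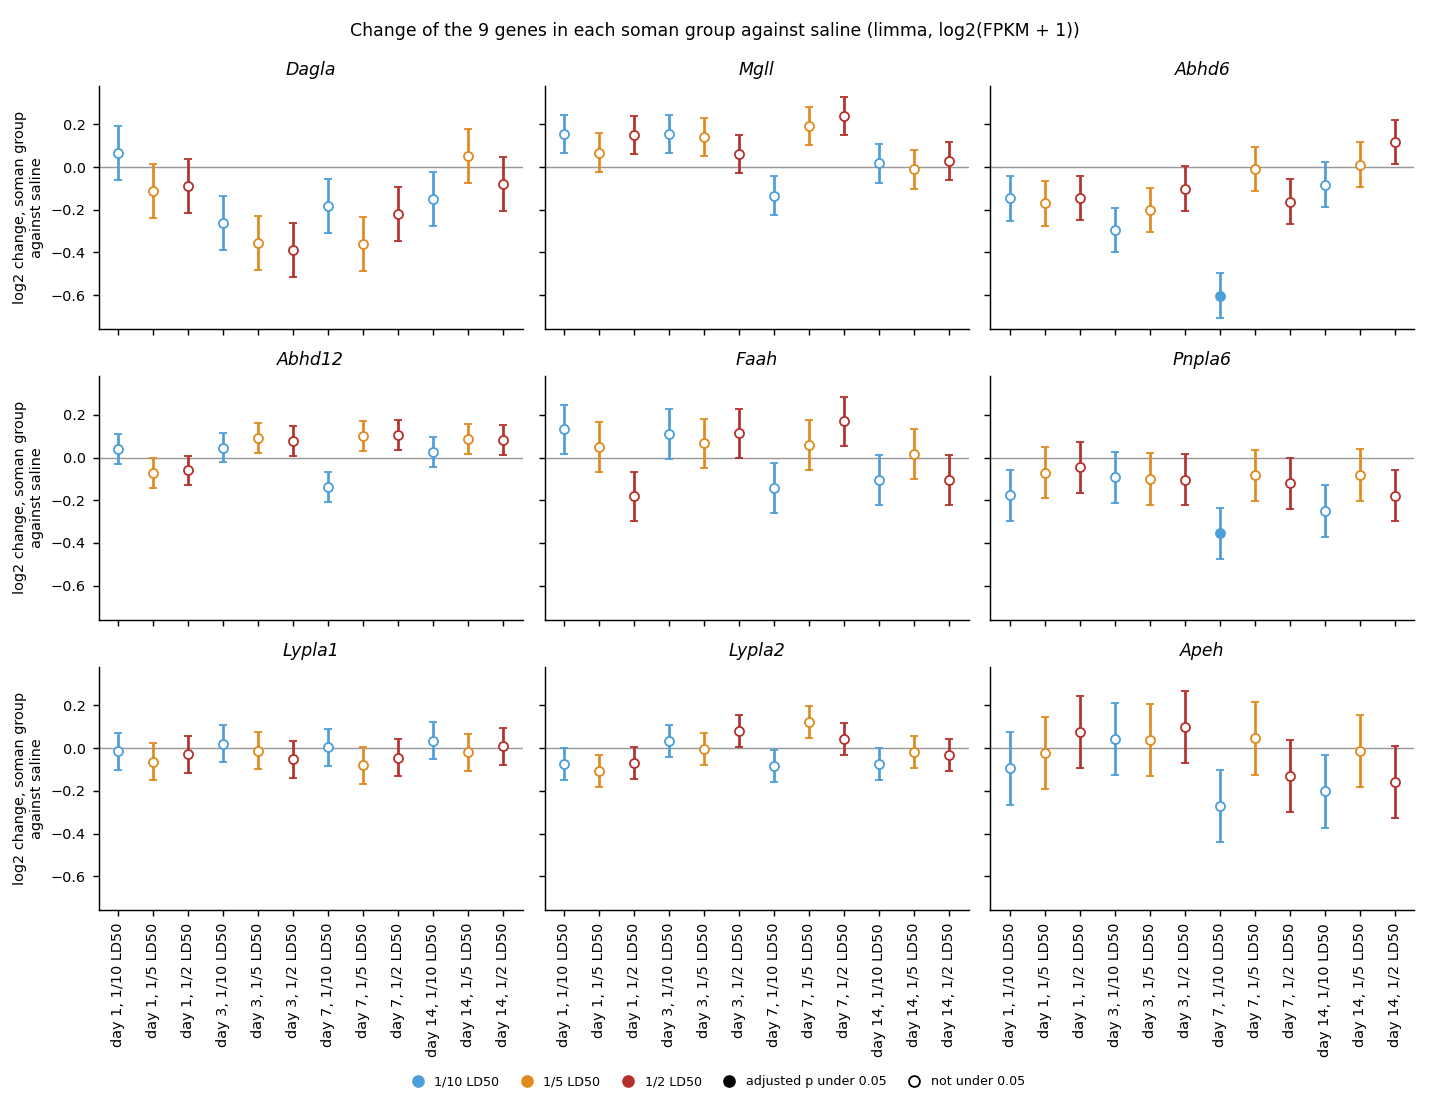
Log2 change ± SE (y axes) of each gene in the 12 soman groups (x axis) against the 3 saline libraries, from limma on log2(FPKM + 1). Filled points passed an adjusted p of 0.05, which only Abhd6 (-0.60) and Pnpla6 (-0.35) in the 1/10 LD50 group at day 7 did. Points of Dagla lie lowest at day 3 and in the 1/5 LD50 group at day 7.

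Dagla, the synthetic enzyme, was lower at days 3 and 7 than at day 1. It read 21.6, 20.3 and 17.8 FPKM in saline. Over the 9 libraries of each day, the lowest, median and highest values were 15.7, 20.001 and 22.3 at day 1, 12.0, 15.0 and 19.4 at day 3, 14.3, 16.5 and 18.5 at day 7, and 16.6, 19.5 and 21.2 at day 14. All 9 libraries of day 3 and all 9 of day 7 were thus below the median of day 1, while 5 and 2 of them were below its lowest value. At day 14 the values spread around those of day 1 again.

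The means of Dagla were 19.3 ± 2.32 FPKM at day 1 and 15.7 ± 2.53 at day 3 (SD, n = 9), a log2 change of -0.29 ± 0.07 (SE) with an adjusted p of 0.00444 by limma. Of all tested genes 23.5% were called between these days, 10.6% lower and 12.9% higher. At day 7 the mean was 16.5 ± 1.23 FPKM and the change -0.21 ± 0.07 (limma, adjusted p = 0.0353), where 25% of all genes were called. The test of any difference among the 4 days called Dagla too (limma F-test, adjusted p = 0.00259), where 49.5% of all tested genes were called. The day 3 call held without each library in turn, without the 3 libraries poor in cerebellar markers (-0.28, adjusted p = 0.0212) and with the cerebellar marker level as a covariate (-0.29, adjusted p = 0.0133), both in limma. The day 7 call was lost in the same fits (adjusted p of 0.0590 and 0.0663 by limma) and in 5 others. These were no filter (-0.21, 0.0843), median-ratio scaling (-0.20, 0.0545), taking out the length trend of each library (-0.12, 0.248), leaving out the 7 libraries that lie between the others (-0.22, 0.133) and leaving out the 2 of highest mitochondrial share (-0.21, 0.0788), all by limma.

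Within day 3 the replicates of Dagla split. Replicate 3 of the 1/10, 1/5 and 1/2 LD50 groups read 19.4, 18.2 and 18.5 FPKM, and replicates 1 and 2 read 14.4 and 15.8, 12.99 and 15.0, and 12.0 and 14.9. Replicate 3 of each group therefore lay within the range of day 1, and the other 6 libraries held the 5 that lay below it. The labels do not say what replicates of the same number share. Over all tested genes, deviations from the group means correlated at r of -0.05 to 0.36 between day 3 libraries of the same number and at -0.30 to 0.18 between those of different numbers. Against saline, the log2 changes of Dagla at day 3 were -0.26 at 1/10 LD50, -0.36 at 1/5 LD50 and -0.39 at 1/2 LD50, each ± 0.13 (SE), and none passed (limma, adjusted p of 0.218, 0.0730 and 0.0509). Background shares of called genes in these 3 groups were 6.97%, 8.6% and 8.44%. At day 7 the 1/5 LD50 group read 15.2, 16.3 and 14.3 FPKM, each below every saline library, with a change of -0.36 ± 0.13 and an adjusted p of 0.0516 by limma, where 15.4% of all genes were called.

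Several of these values of Dagla lie so near the threshold that 1 library decides the call. The day 7 call against day 1 was lost, at adjusted p between 0.0506 and 0.0972 (limma), without any 1 of 9 libraries and with log2 changes of -0.21 to -0.16. Those of day 1 were replicates 1 and 2 at 1/10, 1 at 1/5 and 2 at 1/2 LD50, and those of day 7 were replicate 2 at 1/10 and replicates 1 and 3 at 1/5 and at 1/2 LD50. Against saline, the 1/2 LD50 group of day 3 and the 1/5 LD50 group of day 7 passed (limma, adjusted p from 0.0141 to 0.0495 and from 0.0358 to 0.049955) without any 1 of 11 shared libraries. These were, at day 1, replicates 1 and 2 at 1/5 and 2 at 1/2 LD50; at day 3, replicates 1 and 3 at 1/10 and at 1/5 and 3 at 1/2 LD50; at day 7, replicates 1 and 3 at 1/10 LD50; and at day 14, replicate 1 at 1/2 LD50. The day 7 group also passed without replicate 1 of 1/2 LD50 at day 3. In the other direction, the day 3 change was -0.25 without replicate 1 of its own group (limma, adjusted p = 0.324). That of the day 7 group was -0.32 without its replicate 3 (limma, adjusted p = 0.176). Under median-ratio scaling both groups passed, at -0.42 and -0.38 (limma, adjusted p of 0.0384 and 0.0439). Other alternative fits reached adjusted p of 0.149 and 0.245 (limma).

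Markers of other cell types moved with the same days as Dagla. Of 6 meningeal fibroblast markers 4 were lower at day 3 and 6 at day 7 than at day 1 (limma, adjusted p under 0.05), with summed levels of 37.8 to 52.8 FPKM at day 1, 30.1 to 43.7 at day 3 and 22.4 to 37.3 at day 7. Of 4 choroid plexus markers 3 were lower on each of these days, and of 6 astrocyte markers 2. Of 4 endothelial markers 2 were higher on each. Of 7 neuron markers 1 was higher and 0 lower on each. Of 4 cerebellar granule cell markers 0 were called on either day. Their median log2 changes were -0.893 at day 3 and -0.996 at day 7. Their summed levels were 105.3 to 183.8 FPKM at day 1 and 4.27 to 177.1 at day 3. At day 7 they were 102.97 to 130.96 at 1/10, 41.1 to 78.4 at 1/5 and 3.59 to 65.8 at 1/2 LD50. Dagla was fitted above without the libraries poor in these markers and with their level as a covariate. The part of the other cell types in the change of Dagla was not tested.

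Mgll, the main enzyme of 2-arachidonoylglycerol breakdown in brain, read 31.1, 28.9 and 30.1 FPKM in saline. Its highest group was 1/2 LD50 at day 7, with 38.9, 36.9 and 31.5 FPKM, all above saline. That is a mean of 35.8 FPKM and a log2 change of 0.24 ± 0.09 (SE) that did not pass (limma, adjusted p = 0.0950), where 8.39% of all genes were called. The highest of these 3 values is from a library poor in cerebellar markers, and without it the change was 0.18 (limma, adjusted p = 0.414). Leaving out replicate 3 of the same group gave 0.33 (limma, adjusted p = 0.0293), and median-ratio scaling gave 0.26 (limma, adjusted p = 0.0477). The lowest group was 1/10 LD50 at day 7, where replicate 1 read 31.9 FPKM and the 2 libraries rich in mitochondrial messengers read 26.8 and 23.7.

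Abhd12, whose loss in people causes the neurological disease PHARC, stayed near its saline level in all groups. Its group means against saline ran from a log2 change of -0.14 to 0.10, and none passed (limma, lowest adjusted p = 0.158). By day, the mean was 99.97 ± 4.99 FPKM at day 1, 107.5 ± 4.72 at day 3, 104.2 ± 10.9 at day 7 and 107.0 ± 4.96 at day 14 (SD, n = 9). At day 3, 8 of 9 libraries were above the median of day 1, with a log2 change of 0.10 ± 0.04 that missed the threshold (limma, adjusted p = 0.0613). It passed on leaving out replicate 2 of 1/10 LD50 at day 1 (0.12, adjusted p = 0.0485), replicate 1 of 1/10 LD50 at day 3 (0.13, 0.0238), or replicate 1 or 3 of 1/10 LD50 at day 7 (0.10, 0.0442 and 0.0184), all by limma. Once each library's trend on transcript length was removed, the change was 0.00 (limma, adjusted p = 0.950).

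Faah, a membrane enzyme, read 15.7, 18.4 and 17.8 FPKM in saline. Its group means ran from 15.2 FPKM at 1/2 LD50 at day 1 (13.2, 17.4 and 15.0) to 19.7 FPKM at 1/2 LD50 at day 7 (22.7, 20.2 and 16.4). Both groups overlapped saline, and 0 of 12 groups passed (limma, adjusted p from 0.393 to 0.999, 0 at an unadjusted p under 0.05).

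Abhd6, a membrane-bound hydrolase of 2-arachidonoylglycerol on the postsynaptic side, had the widest range of group means among the 9 genes, 0.72 on the log2 scale. In saline it read 18.6, 19.1 and 18.0 FPKM. At 1/10 LD50 at day 3 the values were 14.3, 14.5 and 16.1 FPKM, each below every saline library. That log2 change was -0.30 ± 0.10 (SE) and did not pass (limma, adjusted p = 0.0812), where 6.97% of all genes were called. It passed with median-ratio scaling (-0.29, limma, adjusted p = 0.0469) and with the length trend removed (-0.35, 0.0287). In another alternative fit the adjusted p was 0.220 by limma. In 1/10 LD50 at day 7 Abhd6 read 15.3, 11.2 and 9.77 FPKM, all below every saline library, and the latter 2 were its lowest values of the 39. The log2 change was -0.60 ± 0.10 (SE), a mean of 12.1 against 18.6 FPKM, with an adjusted p of 0.000652 by limma. In this group 19.5% of all tested genes were called, 15.3% as lower, and 2 of 9 members.

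Pnpla6 read 20.3, 19.9 and 19.0 FPKM in saline and 19.4, 16.3 and 11.04 in the same soman group. The first of these lay within the saline range and the other two below it. The log2 change was -0.35 ± 0.12 (SE), with an adjusted p of 0.0367 by limma. The call was lost without saline replicate 1, 2 or 3 (limma, adjusted p of 0.0953, 0.0854 and 0.0694) and without replicate 3 of the soman group (-0.14, adjusted p = 0.457). Over all soman libraries, 26 of 36 lay below the lowest saline value of Pnpla6 and 3 above the highest, and the mean change was -0.14 ± 0.09 (limma, adjusted p = 0.453).

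Both calls stand in the group that holds the 2 libraries of highest mitochondrial share. Without those, 1 library was left in the group, whose spread was then taken from the other groups, and the changes were -0.26 for Abhd6 and -0.02 for Pnpla6 (limma, adjusted p of 0.413 and 0.968). A larger mitochondrial share leaves a smaller part of the summed FPKM to all other genes together, though not to each of them. Its part in these 2 calls was not tested. With FPKM scaled to the non-mitochondrial sum, Abhd6 read 20.7, 20.3 and 19.5 in saline and 17.1, 14.1 and 12.96 in the soman group, with no overlap. Pnpla6 on this scale read 22.6, 21.2 and 20.5 in saline and 21.7, 20.6 and 14.7 in the soman group, which overlap. With median-ratio scaling, under which the median of all genes is moved to be alike between libraries, Abhd6 was still called (-0.51, limma, adjusted p = 0.000932) and Pnpla6 was not (-0.26, adjusted p = 0.0711). In a fit of only these 2 groups neither passed (limma, adjusted p of 0.207 for Abhd6 and 0.335 for Pnpla6); in such fits of single soman groups with saline the 2 calls were instead Dagla (-0.36, adjusted p = 0.0232 by limma) and Mgll (0.19, 0.0442) in 1/5 LD50 at day 7. Nor did Abhd6 and Pnpla6 pass without the libraries that lie between the others (limma, adjusted p of 0.0539 and 0.150). In the same group 4 of 6 meningeal fibroblast, 2 of 4 choroid plexus and 2 of 4 red blood cell markers were lower. There, 1 marker each of microglia, endothelium and striatum was higher, and of the 7 neuron markers 1 was higher and 1 lower. Their part in these results was not tested.

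**Figure D3:**
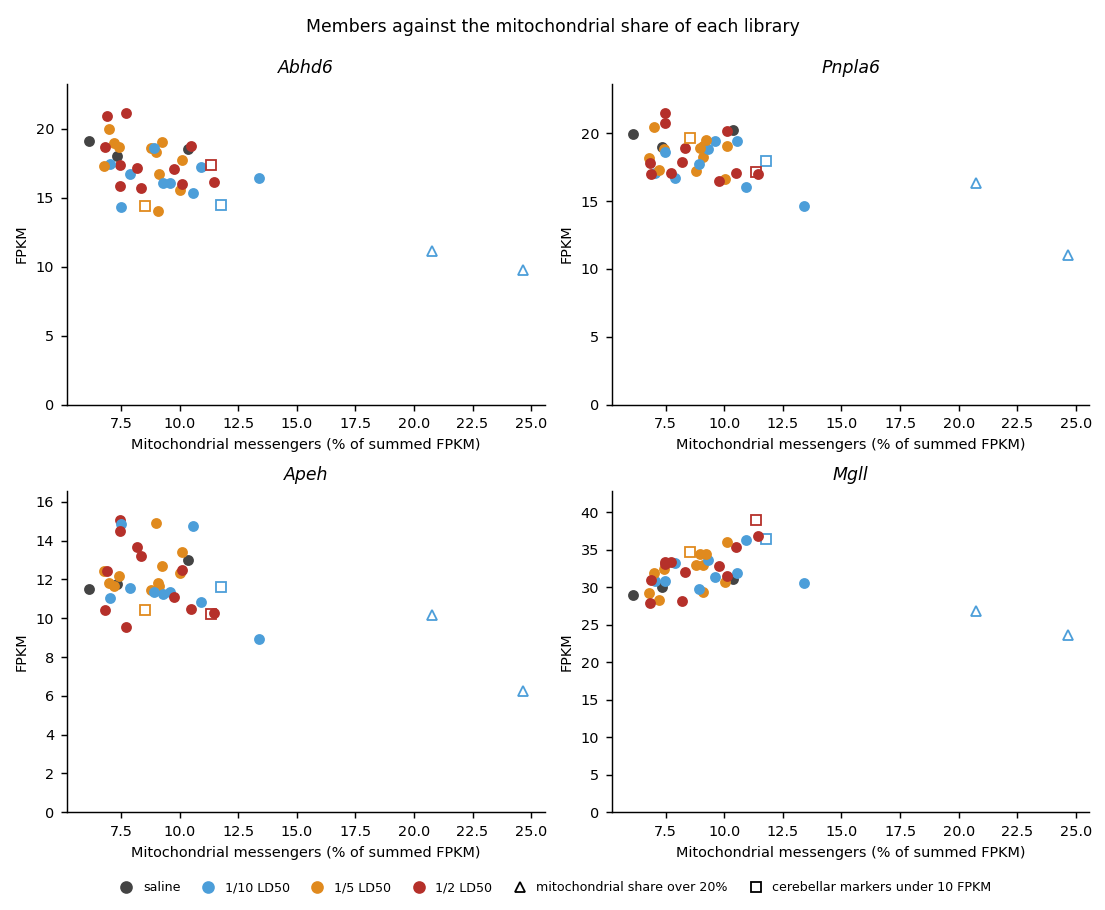
FPKM of Abhd6, Pnpla6, Apeh and Mgll (y axes, from 0) against the share of the summed FPKM taken by the 13 mitochondrial messengers (x axes, percent), 1 point per library. Triangles are the 2 libraries with shares of 20.8% and 24.7%, which hold the 2 lowest values of Abhd6 and of Mgll and the lowest of Pnpla6 and Apeh.

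Across the 37 libraries with shares under 20%, the mitochondrial share was set against each member (9 relations, two-sided permutation tests of 100000 resamples, log2 values). Mgll rose with the share, with a Pearson r of 0.53 (adjusted p = 0.00567) and a Spearman rho of 0.53 (adjusted p = 0.00765), and r was 0.62 without the 2 libraries farthest from the median share. Deviations from the group means gave r = 0.35 for Mgll. The corresponding r of Abhd6 was -0.37 (permutation test, adjusted p = 0.0691) and rho -0.43 (adjusted p = 0.0380), and r was -0.31 without the 2 farthest libraries and -0.05 on deviations from the group means. For Pnpla6 r was -0.38 (permutation test, adjusted p = 0.0691) and rho -0.22 (adjusted p = 0.402), and r was -0.21 without the 2 farthest libraries. On deviations from the group means r was -0.49 for Pnpla6, -0.48 for Apeh and -0.57 for Lypla2. On the values themselves, Apeh gave -0.29 and Lypla2 -0.14 (permutation test, adjusted p of 0.184 and 0.637). For Faah, Lypla1, Abhd12 and Dagla the deviations gave r from 0.01 to 0.23. These r on deviations were not tested.

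The 250 bases upstream of the transcription start of Abhd6 and of Pnpla6 are shown because these 2 genes had the lower values in the same group. They are RefSeq sequences of build GRCm38.p6, found for 6 of the 9 members, with the first start taken where RefSeq gives several (2 for Abhd6 and 3 for Pnpla6). The Abhd6 window is chr14:8002638-8002887 and that of Pnpla6 chr8:3515161-3515410, both on the plus strand. Capitals mark matches, on either strand, to a GC box (GGGCGG) or a CCAAT box (CCAAT).
Abhd6: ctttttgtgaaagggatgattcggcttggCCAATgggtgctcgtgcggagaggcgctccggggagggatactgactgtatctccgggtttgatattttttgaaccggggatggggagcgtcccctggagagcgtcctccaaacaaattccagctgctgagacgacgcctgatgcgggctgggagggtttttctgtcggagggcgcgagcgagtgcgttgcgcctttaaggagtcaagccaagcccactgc
Pnpla6: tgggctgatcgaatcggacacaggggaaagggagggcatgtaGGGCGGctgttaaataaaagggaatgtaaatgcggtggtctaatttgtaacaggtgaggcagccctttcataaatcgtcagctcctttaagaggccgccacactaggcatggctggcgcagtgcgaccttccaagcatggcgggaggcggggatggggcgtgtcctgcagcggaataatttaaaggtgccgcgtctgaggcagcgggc

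Abhd6 has 1 CCAAT box and no GC box in this window, and Pnpla6 has 1 GC box and no CCAAT box. Of 32851 RefSeq windows of the same length, 32.7% hold the GC box letters and 33.8% those of the CCAAT box. The 2 other motifs searched, TATAAA (12.4% of windows) and TGACGTCA, the cyclic AMP response element (1.55%), match neither. G and C made up 58.4% of the Abhd6 window and 56.4% of that of Pnpla6, with 18 and 15 CG pairs, against medians of 52.4% and 6 over all windows. In these windows the 2 genes thus share none of the 4 motifs.

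By day, Abhd6 differed in another way from Dagla. Its lowest, median and highest values were 14.1, 16.7 and 18.8 FPKM at day 1, 14.3, 16.1 and 18.3 at day 3, 9.77, 16.1 and 19.0 at day 7, and 16.4, 18.7 and 21.2 at day 14. At day 14, 8 of 9 libraries were above the median of day 1 and 4 above all of its libraries. The F-test over the 4 days called Abhd6 (limma, adjusted p = 0.00290), where 49.5% of all tested genes were called, and Dagla was the only other member of the 9 to pass. The change from day 1 to day 14 was 0.17 ± 0.06 and missed the threshold (limma, adjusted p = 0.0548), where 14.9% of genes were called. It passed without any 1 of 8 libraries (limma, adjusted p from 0.0155 to 0.0492). At day 1 these were replicates 3 at 1/5 and 2 at 1/2 LD50, at day 3 replicate 3 at 1/5 LD50, at day 7 replicates 1 and 3 at 1/10 LD50, and at day 14 replicates 2 at 1/10, 1 at 1/5 and 2 at 1/2 LD50. Markers of other cell types were lower at day 14 than at day 1 as well (limma, adjusted p under 0.05). These were 4 of 4 of red blood cells (median log2 change -1.29), 4 of 6 of meningeal fibroblasts (-0.37), 3 of 6 each of oligodendrocytes (-0.26) and microglia (-0.23) and 2 of 6 of astrocytes (-0.14), while 1 of 7 of neurons was higher. Their part was not tested.

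Between doses the members differed little. Over the 4 days, 0 of 9 passed between 1/2 and 1/10 LD50 (limma, 1 at an unadjusted p under 0.05), where 0.0408% of all genes, or 6, did. Abhd6 came nearest, with a mean of 17.7 FPKM at 1/2 LD50 and 15.3 at 1/10 LD50 (log2 change 0.21 ± 0.05, adjusted p = 0.0899). The 1/10 LD50 arm of that comparison holds the 2 libraries of high mitochondrial share. In the test for unequal dose effects on different days, 0 of 9 passed (limma F-test, adjusted p from 0.109 to 0.995), where 1.59% of all genes did. At an unadjusted p under 0.05 there were 4, namely Abhd6, Mgll, Abhd12 and Faah. Without replicate 1 of 1/10 LD50 at day 7 those counts were 1 of 9 for dose and 4 of 9 for the differing dose effect. That fit leaves only the 2 libraries of high mitochondrial share in the group. The shares of all genes called in it are not given here, so these counts cannot be set against them.

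Lypla2, a cytosolic thioesterase, read 34.2, 35.1 and 33.2 FPKM in saline. Its lowest, median and highest values were 29.3, 32.6 and 34.0 FPKM at day 1, 32.5, 35.2 and 37.2 at day 3, 29.1, 36.6 and 38.3 at day 7, and 28.2, 33.8 and 35.6 at day 14. At day 3, 7 of 9 libraries exceeded all of day 1. The log2 change was 0.12 ± 0.04 with an adjusted p of 0.0440 by limma, where 23.5% of all genes were called, 12.9% as higher. This call was lost without any 1 of 14 of the 18 libraries of those days (adjusted p from 0.0510 to 0.0987 by limma, log2 change from 0.10 to 0.13); it was kept without replicate 1 of 1/10 LD50, replicate 2 or 3 of 1/5 LD50 at day 1 or replicate 1 of 1/5 LD50 at day 3. It was also lost with no filter, median-ratio scaling, the replicate block, without the libraries between the others or poor in cerebellar markers, and with the cerebellar covariate (limma, adjusted p from 0.0504 to 0.113, log2 change from 0.09 to 0.13). The longest annotated transcript of Lypla2, 1626 bases, is shorter than those of the other members, and once each library's trend on transcript length was removed the change was 0.00 (limma, adjusted p = 0.982). The same removal left Dagla, of 5634 bases, at -0.23 at day 3 (limma, adjusted p = 0.0374). At day 7 Lypla2 changed by 0.11 ± 0.04 against day 1 (limma, adjusted p = 0.0598), where 25% of all genes were called. It passed with median-ratio scaling (0.12, limma, adjusted p = 0.0091). Across the alternative fits this change ran from 0.04 to 0.19, the latter without the 2 libraries of highest mitochondrial share.

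Lypla1, its close relative, had the narrowest range of group means among the members, although Abhd12 and Lypla2 varied less within groups (SD of 0.08 and 0.09 on the log2 scale). It read 12.0, 10.4 and 12.5 FPKM in saline, and its group means ran only from 10.9 to 11.9 FPKM. That range of 0.11 on the log2 scale was undercut by 0.120% of the 4996 tested genes whose mean FPKM lay within that of the 9 members, where the median range was 0.37. The spread of Lypla1 within groups (SD of 0.11 on the log2 scale) was near the median of those genes, also 0.11. None of its 12 comparisons with saline passed (limma, adjusted p from 0.558 to 0.999, 0 at an unadjusted p under 0.05). The lowest library, at 9.60 FPKM, was replicate 1 of 1/2 LD50 at day 7, which is poor in cerebellar markers.

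Apeh, a cytosolic peptidase that some organophosphates also inhibit, varied most between replicates. Its within-group SD was 0.22 on the log2 scale, and 93.1% of the 4996 genes had a smaller one. In 1/10 LD50 at day 7 it read 14.8, 10.2 and 6.24 FPKM, against 13.02, 11.5 and 11.8 in saline. This group spanned nearly the whole range of the 39 libraries, 6.24 to 15.0 FPKM, and the change of -0.27 did not pass (limma, adjusted p = 0.258). No other group passed for Apeh either.

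The level of cerebellar markers was set beside the members. In the 3 libraries poor in granule cell markers, Mgll read 36.5, 34.7 and 38.9 FPKM, Faah 19.9, 19.5 and 22.7, and Abhd12 110.9, 112.7 and 116.5, which placed all of these among the 7 highest of the 39 values of each gene. For Mgll and Abhd12 each of the 3 was above both other libraries of its group. Dagla read 15.8, 15.0 and 17.1 FPKM in them, ranks 31, 34 and 25 from the highest. Over the other 36 libraries the summed marker level was set against each member (9 relations, two-sided permutation tests of 100000 resamples, log2 values). Abhd12 was lower where the markers were higher, with r = -0.49 (adjusted p = 0.0333) and rho = -0.52 (adjusted p = 0.0111). Faah did likewise, with r = -0.43 (permutation test, adjusted p = 0.0421) and rho = -0.48 (adjusted p = 0.0146). Without the 2 libraries farthest from the median, r was -0.42 for Abhd12 and -0.48 for Faah, and on deviations from group means it was -0.41 and -0.54. Lypla2 gave r = -0.40 (permutation test, adjusted p = 0.0481), but -0.25 without the 2 farthest libraries and -0.02 on deviations from group means, so that its relation did not hold within groups. Mgll gave r = -0.36 (permutation test, adjusted p = 0.0659) and rho = -0.28 (adjusted p = 0.216), which did not pass. Dagla gave r = 0.18 (permutation test, adjusted p = 0.417).

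**Figure D4:**
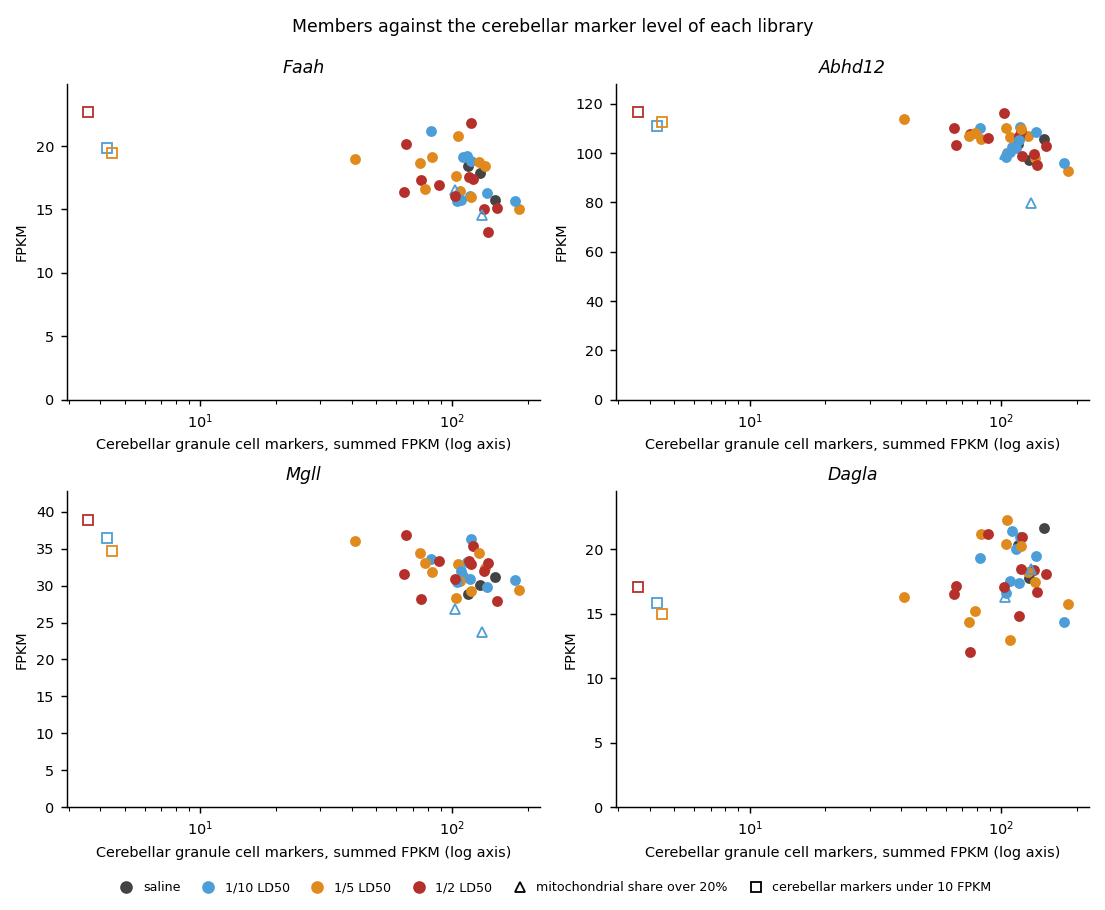
FPKM of Faah, Abhd12, Mgll and Dagla (y axes, from 0) against the summed FPKM of 4 cerebellar granule cell markers (x axes, log scale), 1 point per library. Squares are the 3 libraries at 3.59 to 4.47 FPKM, where Faah, Abhd12 and Mgll lie high (Abhd12 at 110.9 to 116.5 FPKM) and Dagla does not.

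The members were also set against each other over the 39 libraries, as 36 pairs of log2 values, of which 11 had an adjusted p under 0.05 for Pearson's r (two-sided permutation tests). The share of all pairs of tested genes that would pass was not computed, so this count cannot be set against it. Pnpla6 and Apeh were the closest, with r = 0.79 (permutation test, adjusted p = 0.00036) and rho = 0.63 (adjusted p = 0.00072). Without the 2 libraries farthest from the median of Pnpla6, which include the one richest in mitochondrial messengers, r was 0.57, and on deviations from the group means it was 0.77. Mgll and Faah came second, with r = 0.59 (permutation test, adjusted p = 0.00126), rho = 0.61 (adjusted p = 0.00072), 0.49 without the 2 farthest libraries and 0.61 on deviations from group means. Others of the 11 did not hold by rank. Pnpla6 and Abhd6 gave r = 0.43 (permutation test, adjusted p = 0.0482) but rho = 0.07 (adjusted p = 0.851). Abhd6 and Abhd12 gave r = 0.57 (permutation test, adjusted p = 0.00495) but rho = 0.27 (adjusted p = 0.253). Without the 2 farthest libraries these r were 0.02 and 0.28. None of the 11 pairs held Dagla. On deviations from the group means, however, Dagla gave r = 0.61 with Faah and 0.41 with Mgll, against 0.17 and 0.02 on the values themselves (permutation test, adjusted p of 0.408 and 0.920). The libraries of a pair of genes are the same ones, so differences in tissue content or mitochondrial share between libraries enter every pair.

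Among 11201 tested genes with a mean of 2 FPKM or more and a gene symbol, those most like each member over the 39 libraries were named by Pearson's r. These r are the highest of 11201 and include the libraries that stand apart. They were not computed without those libraries or on deviations from the group means. Dagla was most like Bsn (0.89), which encodes the presynaptic scaffold Bassoon, Kcnj6 (0.88), a potassium channel subunit, and Scn8a (0.87), a sodium channel. Abhd6 was most like Slc2a3 (0.86), the neuronal glucose transporter, Fam174b (0.86) and Josd1 (0.85). Mgll went with Sgsm2 (0.86), Rasl10b (0.82) and Ppp1r16a (0.81). Faah went with Cyp46a1 (0.86), the cholesterol 24-hydroxylase of neurons, Stx1a (0.85), a synaptic SNARE protein, and Adgrb2 (0.82). Abhd12 went with Ap1s1 (0.86), Sult4a1 (0.85) and Map2k1 (0.85). Pnpla6 was nearest to Hsd17b4 (0.86), Vps26c (0.84) and Pcx (0.84), and Apeh to Eml3 (0.91), Slc12a4 (0.91) and Acss2 (0.89). Lypla2 was nearest to Rrp9 (0.86), Gstp1 (0.82) and Smpd2 (0.81), and Lypla1, with the weakest likeness, to Acbd5 (0.66), Mmgt1 (0.64) and Cbfb (0.62).

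The other genes of endocannabinoid signalling were followed beside the members. Of 15 listed genes 12 were tested, and over the 12 soman groups 1 of 144 tests against saline passed, where 5.73% of all gene-by-group tests did. It was a rise of Fabp5, a fatty-acid carrier, at 1/5 LD50 at day 3 (log2 change 0.57 ± 0.14, limma, adjusted p = 0.0118), which was not called without the 3 libraries poor in cerebellar markers (0.53, 0.0667). By day, Cnr1, the CB1 receptor through which 2-arachidonoylglycerol acts, was lower on the same days as Dagla, in comparisons that share the 9 libraries of day 1. Its means were 32.1 ± 2.10 FPKM at day 1, 28.0 ± 4.41 at day 3 and 26.0 ± 3.02 at day 7 (SD, n = 9), log2 changes of -0.21 ± 0.08 and -0.30 ± 0.08 (limma, adjusted p of 0.0469 and 0.00387). Without the libraries poor in cerebellar markers the day 3 change was -0.11 (limma, adjusted p = 0.270), and the day 7 change stayed called (-0.30, 0.00127). Gde1, which releases anandamide from its precursor, rose at day 3 (0.15 ± 0.04, limma, adjusted p = 0.0103), and Fabp7 fell at day 14 (-0.38 ± 0.13, limma, adjusted p = 0.0492; 0.0575 without the libraries poor in cerebellar markers). Called were 2 of 12 at day 3, 1 of 12 at day 7, 1 of 12 at day 14 and 5 of 12 in the F-test over days, each a smaller share than the 23.5%, 25%, 14.9% and 49.5% over all genes. The median log2 changes were 0.05, 0.02 and 0.00 for the 3 days.

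Of 43 other serine hydrolases 41 were tested, and 21 of 492 tests against saline passed, 4 as higher and 17 as lower, where 5.73% of all gene-by-group tests did. At 1/10 LD50 at day 7 it was 8 of 41, or 19.5%, the same as the share over all genes, with 1 higher and 7 lower. Among those, Fasn, the fatty acid synthase, had a log2 change of -0.40 ± 0.10 (limma, adjusted p = 0.00634), Prcp, a lysosomal carboxypeptidase, one of -0.43 ± 0.11 and Esd, S-formylglutathione hydrolase, one of -0.63 ± 0.18. Without the 2 libraries of highest mitochondrial share, which leaves 1 library in the group, 0 of 41 passed there, and the changes were -0.14 for Fasn, -0.16 for Prcp and -0.06 for Esd (limma, adjusted p of 0.719, 0.714 and 0.930). At 1/5 LD50 at day 7, 6 of 41 were lower, among them Prepl (-0.28 ± 0.06), Dpp8 (-0.22 ± 0.05) and Tpp2 (-0.27 ± 0.06), all peptidases or their relatives. Against day 1, 3 were higher and 3 lower at day 3, 1 higher and 10 lower at day 7, and 1 higher and 3 lower at day 14, that is 14.6%, 26.8% and 9.76% of the 41, where 23.5%, 25% and 14.9% of all genes were called. Without the 2 libraries of highest mitochondrial share, day 7 had 8 higher and 5 lower. The share of all genes called in that fit is not given here, so these counts cannot be set against it. Dpp8 fell on both day 3 and day 7 (means of 42.6, 37.9 and 37.7 FPKM at days 1, 3 and 7), as did Fasn (50.8, 42.6 and 39.8). Abhd14b fell at day 14, from 6.90 ± 0.483 to 4.35 ± 0.412 FPKM (log2 change -0.56 ± 0.09). Lpl, lipoprotein lipase, was higher than saline at 1/10 LD50 at day 1 (9.33 against 4.77 FPKM, limma, adjusted p = 0.0434) and at 1/5 LD50 at day 3 (8.04 FPKM, adjusted p = 0.0311), and was the 1 gene of the list whose dose effect differed between days (limma F-test, adjusted p = 0.0432). That F-test was not passed without the 2 libraries of highest mitochondrial share (limma, adjusted p = 0.220), nor were the 2 saline comparisons of Lpl without the libraries poor in cerebellar markers (limma, adjusted p of 0.0524 and 0.129).

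For the lipids that Pnpla6 handles, 15 of 16 listed genes of lysophospholipid and choline phospholipid handling were tested, and 9 of 180 tests against saline passed, 4 higher and 5 lower, where 5.73% of all gene-by-group tests did. Gpcpd1, which cuts glycerophosphocholine, the product of Pnpla6, rose at all 3 doses at day 3, from 27.0 ± 0.710 FPKM in saline to 33.9 ± 1.27 at 1/10, 34.3 ± 0.912 at 1/5 and 32.2 ± 1.29 at 1/2 LD50 (SD, n = 3, limma, adjusted p of 0.000379, 0.000191 and 0.00383). All 3 calls held without each of the 3 sets of libraries that stand apart. Against day 1 it was higher at day 3 and lower at days 7 and 14, with means of 30.2, 33.5, 27.2 and 25.9 FPKM. Enpp2, or autotaxin, which is also abundant in choroid plexus, had a log2 change of -0.52 ± 0.13 at day 3 and -0.53 ± 0.13 at day 7 against day 1, beside the lower choroid plexus markers, and its source was not tested. Pla2g4a fell at day 14 from 3.67 ± 1.104 to 2.21 ± 0.344 FPKM.

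All 16 listed palmitoyl transferases, which add the palmitate that Lypla1 and Lypla2 remove, were tested. Against saline 20 of 192 tests passed, 4 higher and 16 lower, where 5.73% of all gene-by-group tests did, and 7 of 16 passed between day 3 and day 1, 2 higher and 5 lower, where 23.5% of all genes did. Those 7 were 10 without the 2 libraries of highest mitochondrial share and 4 without the 3 poor in cerebellar markers. The shares of all genes called in those fits are not given here, so a change in the list cannot be told from a general one. Zdhhc5 read 13.7 ± 0.296 FPKM in saline and 11.1 ± 0.830, 10.4 ± 1.12 and 10.97 ± 0.531 at 1/10, 1/5 and 1/2 LD50 at day 3. It was the 1 gene of the 4 lists called with all soman libraries against saline (log2 change -0.18 ± 0.05, limma, adjusted p = 0.0387). Without the libraries poor in cerebellar markers this change was still -0.18 but did not pass (limma, adjusted p = 0.0509), nor did the 1/10 LD50 group at day 3 (-0.24, 0.0644). Zdhhc9 was lower and Zdhhc4 higher in several groups, the latter from 8.19 ± 0.952 FPKM in saline to 11.5 ± 1.096 at 1/2 LD50 at day 3 (limma, adjusted p = 0.0110). Lypla1 and Lypla2 themselves did not pass in any soman group against saline.

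Without the 7 libraries that lie between the others, which leaves 2 libraries of saline and of 6 soman groups, calls against saline fell to 0 of 144 in the endocannabinoid list, 1 of 492 in the other serine hydrolases, 3 of 180 in the lysophospholipid list and 1 of 192 in the palmitoyl transferases. Of all genes, 0.953% to 1.38% were called at day 3 and 5.14% in 1/5 LD50 at day 7 in that fit. The 3 were those of Gpcpd1 at day 3. The 1 hydrolase was Dpp8 at 1/5 LD50 at day 7 (-0.23, limma, adjusted p = 0.0370) and the 1 transferase Zdhhc5 at 1/5 LD50 at day 3 (-0.35, 0.0382). Of the calls between days, Dpp8 and Fasn at days 3 and 7, Abhd14b at day 14, Enpp2 at days 3 and 7 and Gpcpd1 at all 3 days held in this fit, and those of Cnr1, Gde1, Fabp7 and Pla2g4a did not (limma, adjusted p from 0.0584 to 0.272).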

How the data were processed

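RNA of mouse brain was selected with poly(dT) beads and converted to cDNA by SmartScribe reverse transcriptase, per the labels' protocols. HISAT2 aligned the reads, per the submitters' processing notes. The notes state no HISAT2 version, and for these mouse samples they list GRCh38, a human build. The authors deposited FPKM values for 47561 genes in 39 libraries, and how these were computed is not given in the sources used here. Low values gave no whole reads back (at most 1.52% of ratios at the commonest step), so neither depth nor precision from depth is known.

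The labels gave each library's group. The 14701 genes at 1 FPKM or more in at least 3 libraries were fitted as log2(FPKM + 1) in a single limma 3.58.1 model of 13 groups (R 4.3.3, eBayes with trend), which shares 1 estimate of spread. P-values were adjusted by Benjamini-Hochberg across those genes, and a call is an adjusted p under 0.05. This scale understates changes of low genes. The fitting code was tested on simulated data.

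Named genes are the 9 members, up to 3 called genes of smallest p per list and comparison with a mean of 2 FPKM or more, the 3 genes most like each member, Ache and Bche. The members and the lists were chosen with earlier results of these data known. Alternatives tried were a smaller pseudocount (0.1), all genes unfiltered, scaling by median ratios, fits of only the compared groups, a replicate block, removal of the trend on transcript length (GENCODE vM21, 97.4% of tested genes, lowess span 0.5), leaving out libraries that stand apart, and leaving out each library. Leaving out the 3 libraries under 10 FPKM of cerebellar markers, using that marker level as a covariate, and refitting the listed genes without libraries that stand apart, were chosen after seeing the data.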

Additional observations from a re-analysis of the deposited data

Results flagged for a closer look

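Effects that differed between days were the only results singled out by the rules for a closer look. Dagla changed by -0.29 (log2) between day 1 and day 3 and by -0.21 between day 1 and day 7, each past an adjusted p of 0.05 by limma, and its F-test over the 4 days gave an adjusted p of 0.00259. All 9 libraries of each of these days were below the median of day 1. The day 7 call of Dagla was lost without any 1 of 9 libraries and in 7 of 10 alternative fits. Lypla2 changed by 0.12 between day 1 and day 3, higher than all of day 1 in 7 of 9 libraries. That call was lost without any 1 of 14 libraries and in 7 of 10 alternative fits. Of all tested genes, 23.5% were called between days 1 and 3, 25% between days 1 and 7 and 49.5% in the F-test over days. The F-test of Abhd6 over days gave an adjusted p of 0.00290 by limma. No test of single outlying libraries was made, because each group has 3.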

How the results depend on the processing

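Against saline, the 2 calls over the 12 groups became 1 with no filter, 5 with median-ratio scaling, 0 without the 7 libraries between the others and 4 without the 2 libraries of highest mitochondrial share. Without 1 library the count ran from 1 to 9, with 1 without any saline replicate and 9 without replicate 1 of 1/10 LD50 at day 7. It was 5 without replicate 3 of 1/5 LD50 at day 3, and 4 without replicates 1 or 2 at 1/5 or 2 at 1/2 LD50 (day 1), 1 or 3 at 1/10, 1 at 1/5 or 3 at 1/2 LD50 (day 3), 3 at 1/10 LD50 (day 7) or 1 at 1/2 LD50 (day 14). With only the groups compared the count was 2 as well, but for Dagla and Mgll in 1/5 LD50 at day 7. For days 3, 7 and 14 against day 1, the 3 calls became 1 with no filter, 6 with only the groups compared, 1 without the libraries between the others, 6 without the 2 of highest mitochondrial share, and 1 each without the 3 low in cerebellar markers and with that level as a covariate. With median-ratio scaling the calls were Dagla at day 3, Lypla2 at day 7 and Abhd6 at day 14. With the length trend removed they were Dagla at day 3 and Abhd6 at days 7 and 14. Without 1 library the calls ran from 1 (replicate 1 of 1/5 LD50 at day 1) to 8 (replicate 3 of 1/10 LD50 at day 7), with 6 without replicate 1 of that group and 5 without replicate 2 of 1/10 LD50 at day 14. The 2 calls of the F-test over days became 5 without the 2 libraries of highest mitochondrial share and ran from 2 to 4 without 1 library, 4 being without replicate 1 or 3 of 1/10 LD50 at day 7. Lypla2 joined Abhd6 and Dagla in the F-test over days with median-ratio scaling, and Faah did with the length trend removed. The dose comparison ran from 0 to 1 and the unequal dose effects from 0 to 4. The higher value in each was without replicate 1 of 1/10 LD50 at day 7. In all of these the cause was not tested. The shares of all genes called in these fits are not given here, so a change in the members cannot be told from a general one.

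Abhd6 between day 7 and day 1 turned from -0.104 to 0.0100 without the 2 libraries of highest mitochondrial share, and it was not called in either (limma, adjusted p of 0.216 and 0.913). It was called without replicate 1 of 1/10 LD50 at day 7 (-0.161, adjusted p = 0.0166) and with the trend on transcript length removed (-0.148, 0.0479). Replicate numbers did not pair the libraries (median r of 0.01 over 234 pairs of the same number, from -0.33 to 0.36), although within day 3 r ran from -0.05 to 0.36 for the same number and from -0.30 to 0.18 for different ones. With the replicate number as a replicate block, the counts were 2 over the 12 groups, 2 over the days, 2 in the F-test over days and 0 in the other 3 comparisons, and the call of Lypla2 at day 3 was lost (limma, adjusted p = 0.0504). Depth is unknown and each group has 3 libraries.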
